A study of Mus musculus with 6 samples.

Results

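Il1b, which encodes the inflammatory cytokine interleukin-1β, and Il1r2, which encodes its decoy receptor, were followed in CD45+ cells sorted from mouse liver. The features were chosen by gene symbol alone, and they are 2 of the 5238 genes held by at least 1 of the 3 deposited matrices. Both genes were measured in adjacent tissue and in micrometastasis. Of the pair, only Il1r2 was measured in macrometastasis, where Il1b was not analysed here.

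The cells came from Balb/c mice injected into the heart with 4T07 mammary carcinoma cells that were either Ctrl or Tim3-KD, so the knockdown of Tim3 (Havcr2, an immune checkpoint receptor) was in the tumour cells and not in the sequenced immune cells. Liver was taken on day 3 as adjacent tissue without tumour or as micrometastasis, and on day 12 as macrometastasis, each from mice with Ctrl and with Tim3-KD tumour cells. The 6 groups were 1 library each, and every library pooled mice. There is therefore no replicate check of any difference between groups, no test was made, and each 95% interval below covers counting error only. The knockdown itself cannot be checked in these libraries because tumour cells were not sorted.

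IL-1β is made as an inactive precursor by activated neutrophils, monocytes and macrophages, and is cleaved, usually by an inflammasome, before it leaves the cell. It signals through IL-1R1 with the accessory protein IL-1RAP and drives NF-κB target genes. IL-1R2 binds IL-1β but lacks the signalling domain, so it takes up ligand without passing the signal on, and neutrophils are a well known source of it.

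Il1b (ENSMUSG00000027398) lies on the minus strand of chromosome 2, 129364570 to 129371139, with up to 7 exons. Il1r2 (ENSMUSG00000026073) lies on the plus strand of chromosome 1, 40074079 to 40125231, with up to 9 exons (GENCODE vM21 on GRCm38). An antisense gene overlaps each of them, and whether strand was used in the counting is not given in the sources used here. Sequence upstream of the RefSeq start of each gene (GRCm38.p6) is shown for ligand and decoy, over windows that differ in length and position. Il1b is shown over 250 bases (chr2:129371140-129371389, minus strand) and Il1r2 over the 142 bases that no annotated Il1r2 exon covers (chr1:40085843-40085984, plus strand). Capitals mark matches to TATAAA, to the C/EBP motif TTNNGNAAT and to the E-box CACGTG, searched on both strands.
Il1b: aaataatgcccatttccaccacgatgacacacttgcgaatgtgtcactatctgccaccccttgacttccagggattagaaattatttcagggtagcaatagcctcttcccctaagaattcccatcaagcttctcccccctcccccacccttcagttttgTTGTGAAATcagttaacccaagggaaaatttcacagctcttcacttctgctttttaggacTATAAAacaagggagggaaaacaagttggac
Il1r2: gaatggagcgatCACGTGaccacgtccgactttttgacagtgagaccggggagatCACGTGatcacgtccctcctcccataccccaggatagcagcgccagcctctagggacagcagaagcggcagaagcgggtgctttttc
The Il1b window holds 1 TATAAA, 31 bases before the first transcribed base, and 1 C/EBP match, which 12.4% and 10.2% of all 32851 RefSeq promoters hold over the same length. The Il1r2 window holds 2 E-boxes, and at least 1 E-box is held by 2.697% of promoters over its length. It holds no match to the other motifs. The window ends at 40085984, short of the first transcribed base at 40086093, so the bases just before the start were not searched. A TATAAA at the position seen in Il1b could therefore not be found for Il1r2. Neither window matched GAGGAA, the core of the PU.1 motif, which 23.3% of promoters hold over 250 bases and 14.0% over 142 bases. Neither matched GGANNNNCC, part of the NF-κB motif, which 42.3% and 24.9% hold over these lengths. These matches describe letters in the windows and were chosen with the sequences in view.

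The libraries held between 542 and 5502 cells and between 7086531 and 79971778 UMIs, with medians of 6300 to 10248 UMIs per cell. Pairs of libraries shared 0 to 11 cell barcodes. Cells were grouped into 28 clusters without the genes of the IL-1 list, and 26 clusters were named from markers. Endothelial-like cells were present despite the sort for CD45, from 2 to 346 cells per library. The adjacent tissue Tim3-KD library stood apart, with 542 cells, of which 19 were mature neutrophil-like and 0 neutrophil precursor-like, so its neutrophil values rest on few cells. Levels are given in CPM, the UMIs of the gene per 1000000 UMIs of the cells named.

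Il1b and Il1r2 were both highest in mature neutrophil-like cells in each library with at least 50 of them, among classes of at least 50 cells, and they parted in the other myeloid cells. The order of Il1b among these named classes was mature neutrophil-like, monocyte-like, Kupffer-like and neutrophil precursor-like in micrometastasis Ctrl, while Il1r2 was next highest in neutrophil precursors there and low in Kupffer-like cells. In micrometastasis, the ligand was lower with Tim3-KD tumour cells in each of the 3 main clusters of mature neutrophils, while the decoy receptor differed by at most 1.13-fold there.

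In mature neutrophil-like cells, Il1b stood at 4223 CPM in adjacent tissue Ctrl (4158 to 4289, 569 cells), 9573 for adjacent tissue Tim3-KD (8986 to 10188, 19 cells), 5689 in micrometastasis Ctrl (5643 to 5734, 1474 cells) and 2198 in micrometastasis Tim3-KD (2173 to 2224, 1606 cells). The highest value comes from the smallest number of cells, and the 2 micrometastasis libraries lay on either side of adjacent tissue Ctrl. Il1r2 in the same cells stood at 1890 CPM in adjacent tissue Ctrl, 2637 in adjacent tissue Tim3-KD, 1582 in micrometastasis Ctrl, 1424 in micrometastasis Tim3-KD, 2108 in macrometastasis Ctrl and 1956 in macrometastasis Tim3-KD. Its 6 values thus spanned a narrower range than the 4 values of Il1b.

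In monocyte-like cells, Il1b was at 271.4 CPM in adjacent tissue Ctrl (274 cells), 535.2 in adjacent tissue Tim3-KD (23 cells), 1408 in micrometastasis Ctrl (1124 cells) and 351.3 in micrometastasis Tim3-KD (967 cells). This class took in cluster 9, with macrophage genes such as Trem2 among its leading genes, which held 400 of the 1124 and 138 of the 967 cells. In Kupffer-like cells, the resident macrophages of liver, it was at 686.0, 423.1, 892.7 and 841.2 CPM in the same order, from 31, 106, 274 and 255 cells. The last pair differed by a ratio of 0.942 (0.886 to 1.00), but cluster 21, low in Il1b, held 61 of the 274 Kupffer-like cells for Ctrl and 3 of 255 for Tim3-KD, and within cluster 0 the ratio was 0.843 (0.792 to 0.897). The micrometastasis pair of monocytes differed by a ratio of 0.249 (0.242 to 0.257), with the cluster makeup given further on. In neutrophil precursor-like cells Il1b was at 140.6 CPM in adjacent tissue Ctrl, 281.2 in micrometastasis Ctrl and 191.8 in micrometastasis Tim3-KD. Basophil or mast cell-like cells, few in number, also held Il1b, at 1438 CPM in micrometastasis Ctrl (34 cells) and 434.4 CPM in Tim3-KD (52 cells). The unnamed cluster 16, led by Naaa, Cst3 and Clec9a with MHC class II genes, was at 1121 CPM of Il1b in micrometastasis Ctrl (143 cells), above Kupffer-like cells, and at 585.1 CPM in Tim3-KD (95 cells). Endothelial-like cells of micrometastasis went the other way, at 238.5 CPM (78 cells) and 1649 CPM (38 cells), beside summed mature neutrophil markers of 512.1 and 3285 CPM, and the part of neutrophil RNA in this difference was not tested.

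Among classes of at least 50 cells, the second rank for Il1r2 was held by neutrophil precursors in adjacent tissue Ctrl and micrometastasis, and by monocytes in macrometastasis. Neutrophil precursor-like cells held 346.6 CPM in adjacent tissue Ctrl, 259.2 in micrometastasis Ctrl, 256.9 in micrometastasis Tim3-KD, 175.3 in macrometastasis Ctrl and 122.3 in macrometastasis Tim3-KD. Monocyte-like cells held 51.0, 23.9, 83.1 and 117.9 CPM in the 4 libraries of day 3, and 273.3 and 138.2 CPM in macrometastasis Ctrl and Tim3-KD. Kupffer-like cells held between 3.24 CPM in adjacent tissue Tim3-KD and 60.3 CPM in micrometastasis Tim3-KD.

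Lymphoid cells gave a gauge of transcript from other cells, although IL-1R2 is also known on some B and T cells. B-like cells held Il1b at 3.54 to 27.8 CPM in 3 libraries and at 125.8 CPM in micrometastasis Tim3-KD, where 40 UMIs came from 4 of 70 cells. Their Il1r2 ranged from 1.33 to 62.9 CPM over the 6 libraries, again highest in micrometastasis Tim3-KD. In the thinned B-like cells of adjacent tissue Ctrl both transcripts were seen in 1.54% of 259 cells, against a product of the shares of 0.052%. T-like cells held Il1r2 at 4.87 to 25.3 CPM over the 6 libraries, and NK or ILC1-like cells of micrometastasis at 15.7 CPM for Ctrl (178 cells) and 3.99 for Tim3-KD (35 cells, 1 UMI). Kupffer-like Il1r2 lay within the range of B-like cells. Mature neutrophil levels of Il1b and Il1r2 lay far above all of these in every library.

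**Figure D1:**
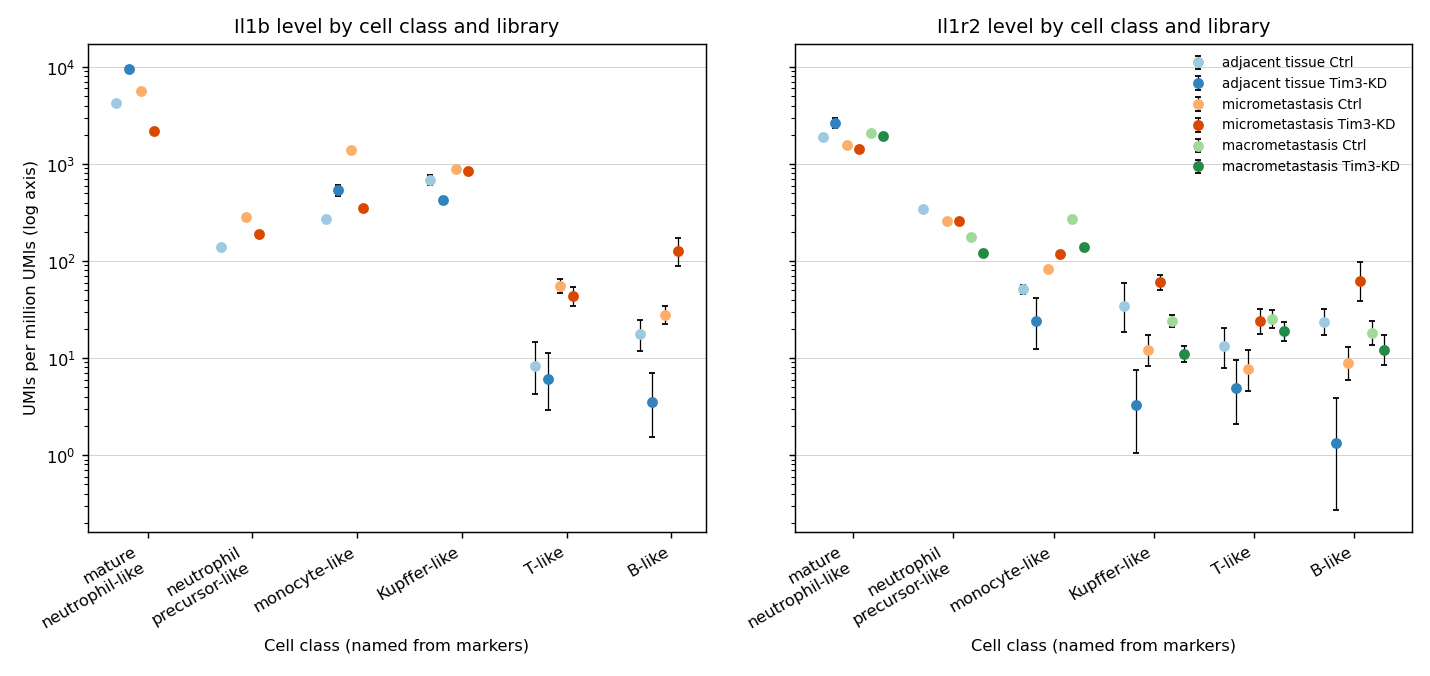
Level of Il1b (left) and Il1r2 (right) in CPM on a log axis, for 6 cell classes and each library (colour), with 95% exact Poisson intervals that are often smaller than the points. Mature neutrophil-like cells sit highest in both panels, from 2198 to 9573 CPM for Il1b and from 1424 to 2637 CPM for Il1r2, and classes with 0 UMIs or 0 cells are not drawn.

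When every cell was thinned to 1500 UMIs, 92.4% of mature neutrophil-like cells of adjacent tissue Ctrl had a UMI of Il1b (90.0 to 94.5), 91.7% of those in micrometastasis Ctrl (90.2 to 93.1) and 78.3% of those in micrometastasis Tim3-KD (76.2 to 80.3). The share with a UMI of Il1r2 was 86.0% in micrometastasis Ctrl (84.1 to 87.7) and 84.4% in micrometastasis Tim3-KD (82.5 to 86.1), and these intervals overlap. In macrometastasis it was 90.8% for Ctrl and 87.7% for Tim3-KD. Without thinning the micrometastasis shares were 97.6% and 92.6% for Il1b, and 98.8% and 98.9% for Il1r2. B-like cells thinned in the same way had a UMI of Il1b in 2.04% to 4.31% of cells and of Il1r2 in 0.510% to 4.29% of cells over all libraries measured. No mature neutrophil-like or B-like cell was below 1500 UMIs. Median depth of mature neutrophil-like cells was 5741 UMIs in micrometastasis Ctrl and 5706.5 in Tim3-KD, against 3484 and 4223.5 in B-like cells.

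The difference in Il1b was seen from the 10th to the 90th percentile of cells. Median Il1b per 10000 UMIs of a mature neutrophil-like cell was 56.2 in micrometastasis Ctrl and 17.9 in Tim3-KD, the 10th percentile was 8.40 and 1.49, and the 90th percentile was 163.1 and 65.8. For Il1r2 the medians were 15.1 and 13.9, the 10th percentiles 5.51 and 5.41, and the 90th percentiles 31.9 and 29.1. The 10% of cells richest in Il1b held 28.2% of its UMIs for Ctrl and 35.6% for Tim3-KD. Cells with at least 10 UMIs of Il1b made up 86.2% of mature neutrophil-like cells for Ctrl and 55.7% for Tim3-KD.

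**Figure D2:**
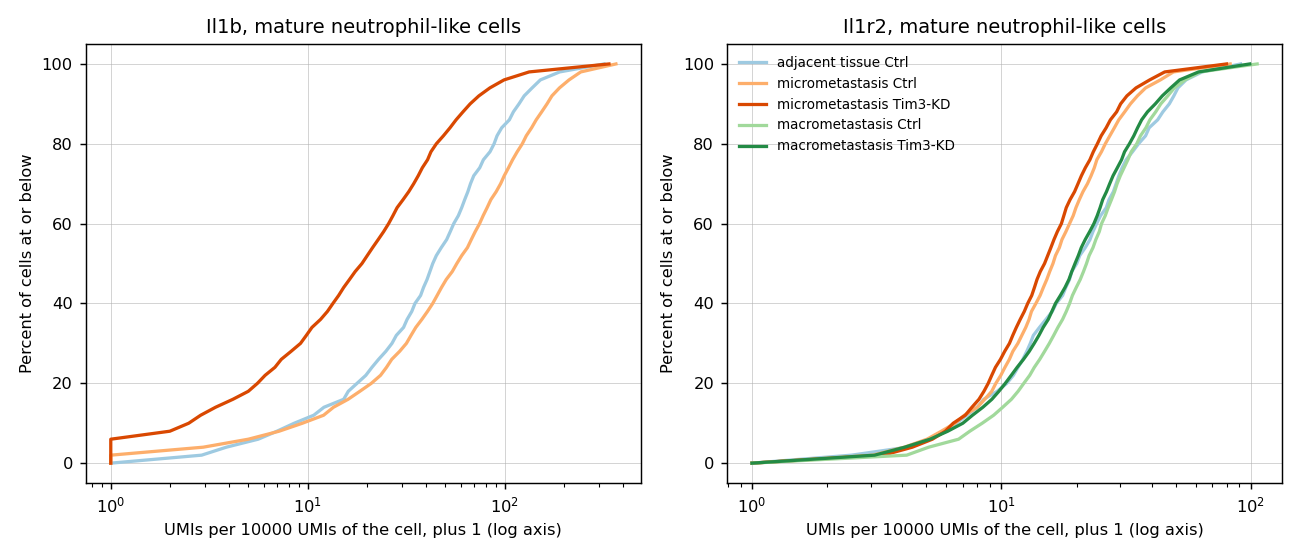
Percent of mature neutrophil-like cells at or below each level of Il1b (left) and Il1r2 (right), as UMIs per 10000 UMIs of the cell plus 1 on a log axis, for the libraries with at least 50 such cells. The Il1b curve of micrometastasis Tim3-KD lies left of both Ctrl curves over most of its length, with medians of 17.9 against 56.2 for micrometastasis Ctrl, while the 5 Il1r2 curves run close together.

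Ligand and decoy were seen together in mature neutrophil-like cells about as often as their separate shares would give, but with shares this high that measure is near its ceiling. At 1500 UMIs per cell, both transcripts were seen in 79.4% of mature neutrophil-like cells of micrometastasis Ctrl (1474 cells), against 78.8% if the 2 shares were independent. In Tim3-KD both were seen in 66.9% of 1606 cells, against a product of 66.1%. Cells with Il1r2 but no Il1b were 6.51% for Ctrl and 17.4% for Tim3-KD, and cells with Il1b but no Il1r2 were 12.3% and 11.4%. Thinned mature neutrophil-like cells of micrometastasis Ctrl held 2.66 UMIs of Il1r2 where Il1b was seen (2.57 to 2.75, 1352 cells) and 2.00 where it was not (1.76 to 2.27, 122 cells). For Tim3-KD these were 2.54 (2.45 to 2.63) and 2.00 (1.86 to 2.16), and in adjacent tissue Ctrl 3.46 (3.30 to 3.62) and 2.09 (1.68 to 2.57). Within mature neutrophil clusters 2 and 6 of micrometastasis, the intervals with and without Il1b overlapped in both libraries. Cluster 6 gave 2.01 and 1.91 for Ctrl, and the order was reversed for Tim3-KD. In adjacent tissue Ctrl they overlapped in cluster 6 but not in cluster 2, at 3.13 (2.86 to 3.42) and 1.59 (1.15 to 2.15, 27 cells). Cluster 4 had too few cells without Il1b to compare. In monocyte-like cells of micrometastasis Ctrl 8.19% had both and 56.4% Il1b only, and in neutrophil precursor-like cells 11.4% had both and 24.5% Il1r2 only. Among mature neutrophils, double-positive cells thus made up less of the Tim3-KD library and Il1r2-only cells more.

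The 3 clusters that held most mature neutrophil-like cells of day 3 had the same order for Il1b and Il1r2, over a wider range for Il1b. Cluster 4, with Steap4, Csf1, Ccrl2 and Isg15 among its leading genes, was at 6775 CPM of Il1b in adjacent tissue Ctrl, 9812 in adjacent tissue Tim3-KD (18 cells), 11107 in micrometastasis Ctrl and 5951 in micrometastasis Tim3-KD. Cluster 2, with Steap4, Igfbp6 and Cxcr2 among them (the last the receptor that draws neutrophils to CXC chemokines), was at 2896 CPM in adjacent tissue Ctrl, 7096 in micrometastasis Ctrl and 3264 in micrometastasis Tim3-KD. Cluster 6, led by Prok2 and stefin genes (inhibitors of cysteine proteases), was at 1327, 2153 and 1176 CPM in the same 3 libraries. Il1r2 in clusters 4, 2 and 6 was at 2489, 1701 and 1024 CPM in adjacent tissue Ctrl, 1920, 1805 and 1247 CPM in micrometastasis Ctrl, and 2175, 1771 and 1150 CPM in micrometastasis Tim3-KD. Cluster 4 was highest and cluster 6 lowest for each gene in each of these libraries.

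In micrometastasis, the Tim3-KD over Ctrl ratio of Il1b was 0.536 in cluster 4 (0.520 to 0.552, 316 and 141 cells), 0.460 in cluster 2 (0.450 to 0.470, 728 and 796 cells) and 0.546 in cluster 6 (0.531 to 0.562, 420 and 659 cells). Over all mature neutrophil-like cells it was 0.386 (0.381 to 0.392). Tim3-KD cells lay more in cluster 6 and fewer in cluster 4, and with the UMI shares of the clusters held at those of Ctrl the ratio was 0.503. Within-cluster differences made up 71.9% of the difference in CPM. At least 2-fold lower levels were seen for 3.79% of the 1687 genes with at least 100 UMIs in these cells, and 28 of these genes had a lower ratio than Il1b.

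The Il1r2 ratio in micrometastasis was 1.13 in cluster 4 (1.07 to 1.20), 0.981 in cluster 2 (0.949 to 1.01) and 0.922 in cluster 6 (0.892 to 0.954), so the clusters were on both sides of 1. Over all mature neutrophil-like cells it was 0.900 (0.882 to 0.920), and 0.995 with the cluster shares of Ctrl. In macrometastasis the largest cluster of mature neutrophils was cluster 3, led by Bcl2l15 and Arrdc4, where Il1r2 was at 2626 CPM for Ctrl (1090 cells) and 2842 CPM for Tim3-KD (737 cells), above every other cluster with at least 50 cells in a library. Cluster 4 of adjacent tissue Tim3-KD stood at 2757 CPM from 18 cells. Over all mature neutrophil-like cells of macrometastasis the ratio was 0.928 (0.913 to 0.944), which lay at a log2 ratio of 0.0058 relative to the trimmed mean of all genes of those cells, and with the cluster shares of Ctrl it was 1.06, so its direction depended on the scaling and on the clusters.

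**Figure D3:**
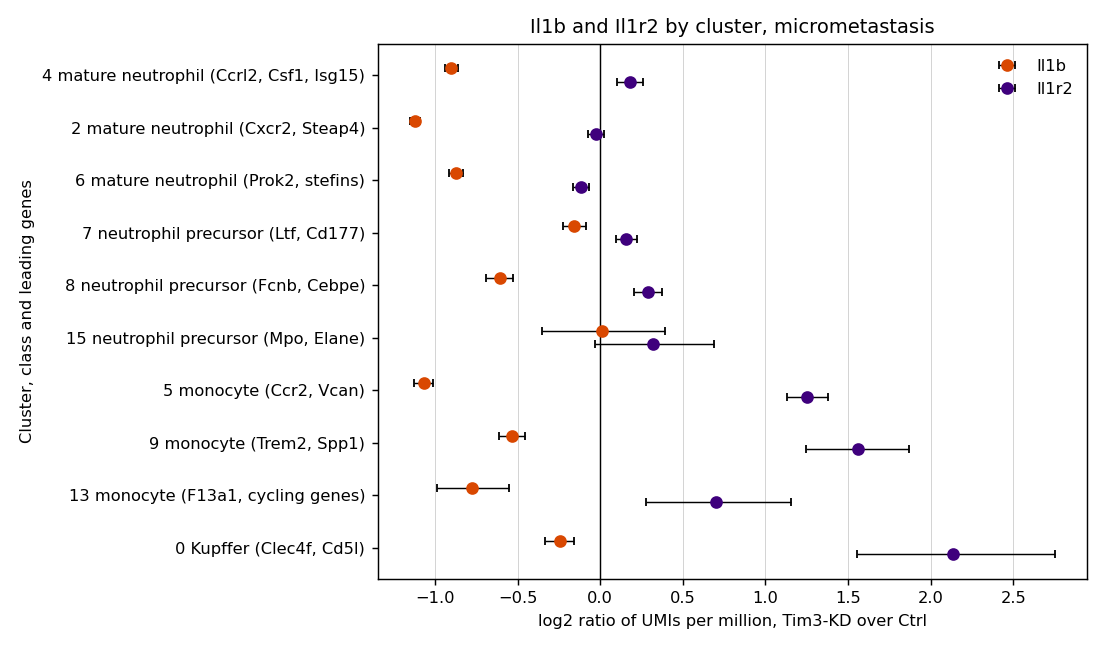
Tim3-KD over Ctrl log2 ratio of Il1b (orange) and Il1r2 (purple) in 10 clusters of micrometastasis, with 95% exact intervals of counting error. Il1b lies left of 0 in 9 clusters, near -1 in the 3 mature neutrophil clusters and in monocyte cluster 5, while Il1r2 lies near 0 in the mature neutrophils and right of 0 in monocytes and Kupffer cells.

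Il1b and Il1r2 differed between the precursor clusters. In micrometastasis Ctrl, Il1b was at 19.4 CPM in cluster 15 (Mpo and Elane, proteins of the primary granules), 259.0 in cluster 8 (Fcnb and Cebpe, with cycling genes) and 543.2 in cluster 7 (Ltf, a secondary granule protein, and Cd177). Il1r2 was at 19.4, 193.1 and 572.6 CPM in the same clusters. Cluster 15 was thus no higher in Il1b than B-like cells of that library, at 27.8 CPM. In cluster 7 the levels of both were still below those of clusters 2, 4 and 6. The Tim3-KD over Ctrl ratio of Il1b was 1.01 in cluster 15 (0.784 to 1.31), 0.656 in cluster 8 (0.621 to 0.694) and 0.896 in cluster 7 (0.854 to 0.940). For Il1r2 it was 1.25 (0.977 to 1.61), 1.22 (1.15 to 1.29) and 1.12 (1.07 to 1.17).

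In the largest monocyte cluster of micrometastasis, Il1b was lower and Il1r2 higher with Tim3-KD tumour cells. In cluster 5 (Ccr2, Vcan and Ms4a4c) Il1b was at 1588 CPM for Ctrl and 757.3 for Tim3-KD, and Il1r2 at 128.8 and 307.0 CPM, a ratio of 2.38 (2.19 to 2.60). In cluster 9 (Trem2 and Spp1, genes of lipid-handling macrophages) Il1b was at 1826 and 1263 CPM and Il1r2 at 44.1 and 129.8 CPM. The makeup of cluster 9 differed between the libraries. With all shared genes in the clustering, a cluster led by Sdc4, Ccl24, Trem2 and Spp1 held 410 cells for Ctrl and 48 for Tim3-KD, and one led by Pf4, Thbs1 and Ctsl, with Alb, held 6 and 94. In cluster 13 (F13a1 and Ly6c2, with cycling genes) Il1b was at 104.2 and 61.0 CPM and Il1r2 at 21.6 and 35.2 CPM, the latter below the 62.9 CPM of B-like cells in that library. Cluster 13, low in both, held 76 of the 1124 monocyte-like cells in Ctrl and 344 of 967 in Tim3-KD, and the class ratio of Il1b, 0.249, was below those of clusters 5, 9 and 13. At least 2-fold lower levels were seen for 13.7% of 2230 genes over all monocyte-like cells of micrometastasis, and at least 2-fold higher levels for 5.52%. In Kupffer-like cells of micrometastasis the Il1r2 ratio was 4.96 (3.33 to 7.64), where 2.78% of 1261 genes were at least 2-fold higher and 1.19% at least 2-fold lower.

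Neutrophil RNA in these cells was gauged by 12 of the 19 markers of mature neutrophils, those that the micrometastasis matrix holds. All 12 had a UMI in clusters 5 and 9 of both libraries. Their summed level was 377.0 CPM for Ctrl and 410.0 for Tim3-KD in cluster 5, while Il1r2 differed 2.38-fold. It was 336.6 and 754.8 CPM in cluster 9, and 256.2 and 581.8 CPM in Kupffer-like cells, where Prok2 was at 0 in Ctrl. Il1r2 of B-like cells likewise stood at 8.93 CPM for Ctrl and 62.9 CPM for Tim3-KD. In mature neutrophil-like cells the sum was 20954 and 17410 CPM. In cluster 9 and in Kupffer-like cells the markers moved with Il1r2, and their part in its difference was not tested.

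The number of Il1r2 UMIs per Il1b UMI was compared between libraries and not between the genes. Each UMI counts 1 molecule read near its 3′ end, so no length correction was made. In mature neutrophil-like cells it was 0.447 in adjacent tissue Ctrl (0.435 to 0.460), 0.275 for adjacent tissue Tim3-KD (0.240 to 0.315), 0.278 in micrometastasis Ctrl (0.273 to 0.283) and 0.648 in micrometastasis Tim3-KD (0.636 to 0.660). Micrometastasis Tim3-KD was also the highest of the 4 libraries in monocyte-like cells, at 0.336 against 0.059 in micrometastasis Ctrl. Precursors of adjacent tissue Ctrl had the most decoy transcript per ligand transcript, at 2.47 (2.33 to 2.61), and those of micrometastasis had 0.922 for Ctrl and 1.34 for Tim3-KD. Kupffer-like cells had from 0.008 to 0.072.

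**Figure D4:**
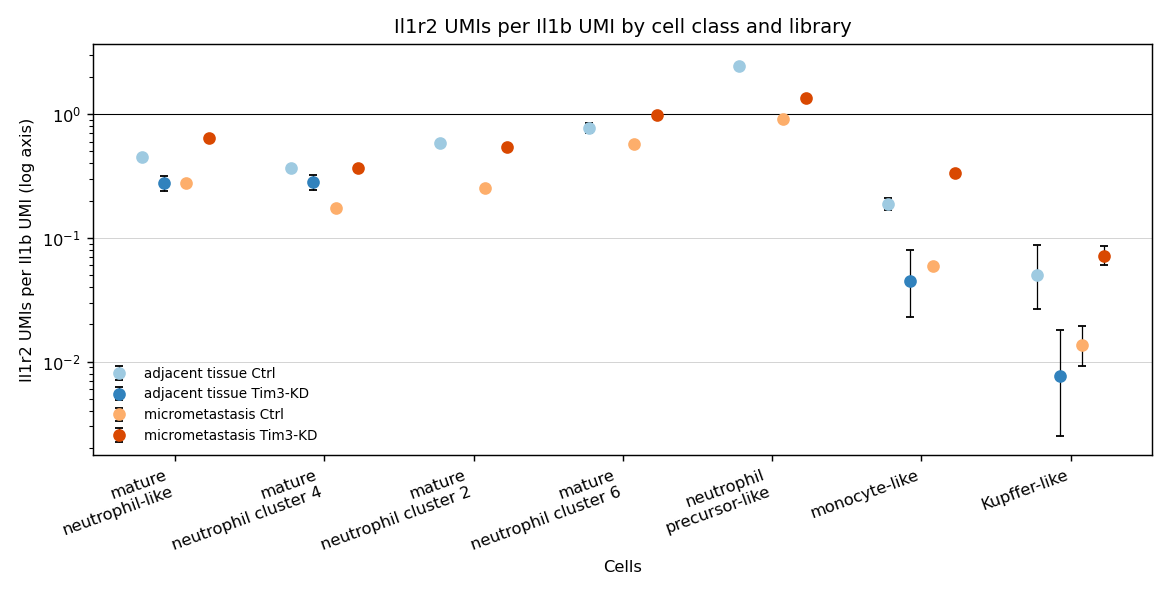
Il1r2 UMIs per Il1b UMI on a log axis, in classes and in mature neutrophil clusters, for the 4 libraries that hold both genes and at least 15 cells, with 95% exact intervals of counting error. Micrometastasis Tim3-KD lies above micrometastasis Ctrl in all 7 cell groups drawn, for example 0.648 against 0.278 in mature neutrophil-like cells. The clusters drawn are parts of the mature neutrophil-like class.

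Mature neutrophil-like cells carried most of both transcripts in each micrometastasis library. They held 67.0% of Il1b UMIs for Ctrl and 62.3% for Tim3-KD, and 74.2% and 57.9% of Il1r2 UMIs, from 19.0% and 15.8% of all UMIs. Neutrophil precursor-like cells held 19.3% of Il1r2 UMIs for Ctrl and 34.8% for Tim3-KD. Monocyte-like cells held 21.4% and 12.0% of Il1b UMIs. In macrometastasis, mature neutrophil-like cells held 90.5% of Il1r2 UMIs for Ctrl and 89.6% for Tim3-KD.

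Whole-library levels mixed these class levels with the makeup of the libraries. Over all cells of micrometastasis 18.1% of 2669 genes were at least 2-fold lower in Tim3-KD, and Il1b was among them, with a log2 ratio of -1.53. With the class shares of Ctrl, Il1b went from 1610 to 643.8 CPM, and differences within classes made up 84.5% of the whole difference. By clusters in place of classes the share was 55.6%. Il1r2 was at 404.2 CPM for Ctrl and 388.6 for Tim3-KD of micrometastasis (ratio 0.961, 0.945 to 0.978). The log2 ratio of Il1r2 was -0.06 there but 0.38 relative to the trimmed mean of all genes, which itself lay at -0.44, and the ratio was 1.12 with the cluster shares of Ctrl, so no direction is given. In macrometastasis Il1r2 was at 674.9 and 516.1 CPM, a ratio of 0.765 (0.753 to 0.777). Of this difference 43.8% lay within classes and 1.64% within clusters, and with the cluster shares of Ctrl the ratio was 1.04. In adjacent tissue Il1b was at 667.1 CPM for Ctrl and 293.5 for Tim3-KD, and Il1r2 at 389.0 and 43.0 CPM, beside 569 and 19 mature neutrophil-like cells. There, 9.26% of 4459 genes were at least 2-fold lower. The log2 ratio of Il1b was -1.18 there, -1.78 relative to the trimmed mean of all genes and -2.05 as a mean over cells.

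Between the sites of Ctrl mice, Il1b and Il1r2 went opposite ways in mature neutrophil-like cells. From adjacent tissue to micrometastasis the ratio was 1.35 for Il1b (1.32 to 1.37) and 0.837 for Il1r2 (0.814 to 0.861). By cluster, Il1b was higher in micrometastasis in clusters 2, 4 and 6, at ratios of 2.45, 1.64 and 1.62, whereas Il1r2 was at 1.06, 0.771 and 1.22. In monocyte-like cells the Il1b ratio was 5.19 (4.95 to 5.44), but cluster 13, low in Il1b, held 88 of 274 cells in adjacent tissue and 76 of 1124 in micrometastasis. Cluster 9, above cluster 5 in Il1b in micrometastasis Ctrl, held 6 of the 274 and 400 of the 1124. In cluster 5 Il1b was at 547.9 CPM in adjacent tissue (174 cells) and 1588 CPM in micrometastasis (644 cells). Il1r2 of mature neutrophil-like cells was higher in macrometastasis than in micrometastasis, by ratios of 1.33 for Ctrl (1.31 to 1.36) and 1.37 for Tim3-KD (1.35 to 1.40), and cluster 3, which held 9 of the cells in micrometastasis Ctrl, was among the main clusters of the later site. Within clusters this was not general. For Tim3-KD the ratios were 0.785, 0.923 and 0.867 in clusters 2, 4 and 6, and for Ctrl 0.677 (22 cells in macrometastasis), 1.15 and 1.10 (24 cells).

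The wider IL-1 pathway was read from 83 listed genes, of which the 3 matrices hold 49. In mature neutrophil-like cells of micrometastasis 36 of them had at least 100 UMIs. Of these, 6 were at least 2-fold lower in Tim3-KD and 0 at least 2-fold higher, against 3.79% and 1.13% of all genes, and their median log2 ratio was -0.41 against -0.10 for all 1687 genes. The genes past 2-fold were Il1b and 5 inflammatory genes that IL-1 and NF-κB are known to induce.

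Among the ligands, Il1f9 (IL-36γ) was at 213.0 CPM for Ctrl and 123.6 CPM for Tim3-KD in these cells, a ratio of 0.581 (0.544 to 0.619). Il1a, the second ligand of the IL-1 receptor, was at 9.23 and 6.33 CPM. Among the antagonists, Il1rn, which blocks the receptor, was at 124.3 and 75.7 CPM, a ratio of 0.609 (0.560 to 0.662), whereas Il18bp, which binds IL-18, was at 45.9 and 55.1 CPM. The antagonist of IL-1 thus lay between the ligand, at a ratio of 0.386, and the decoy receptor, at 0.900.

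Of the other receptors, Il1rap, the shared signalling subunit, was at 112.7 and 84.7 CPM, and Il18rap at 118.9 and 111.5 CPM. Il1r1, the signalling receptor, was not analysed in this site. Nlrp3, the sensor of the inflammasome that activates IL-1β, was at 241.6 and 183.7 CPM, and Mefv, which encodes pyrin, at 53.0 and 40.1 CPM. Txnip was at 505.5 and 613.6 CPM.

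In the signalling group, Nfkbid was at 124.4 and 63.2 CPM (ratio 0.508, 0.465 to 0.555), Tnfaip3, a brake on NF-κB, at 103.8 and 58.1 CPM, and Cebpb, a transcription factor of myeloid cells, at 240.7 and 147.4 CPM. Nfkbia, which encodes the inhibitor IκBα, was at 2385 and 2703 CPM and Nfkbiz at 542.9 and 611.9 CPM. The group thus held members on both sides.

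The induced genes spread furthest. Cxcl3, a neutrophil-attracting chemokine, was at 118.0 CPM for Ctrl and 20.3 CPM for Tim3-KD, a ratio of 0.172 (0.149 to 0.197). Ptgs2, which encodes cyclooxygenase-2, was at 110.4 and 19.5 CPM, a ratio of 0.176 (0.153 to 0.202). Ccl4 was at 379.1 and 98.2 CPM, Cxcl1 at 29.6 and 12.6 CPM, and Cxcl2 at 186.0 and 89.9 CPM. Tnf lay the other way, at 70.7 and 129.6 CPM, a ratio of 1.83 (1.68 to 2.00). Saa3 and Clec4e, both abundant, had ratios of 1.03 and 0.971.

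**Figure D5:**
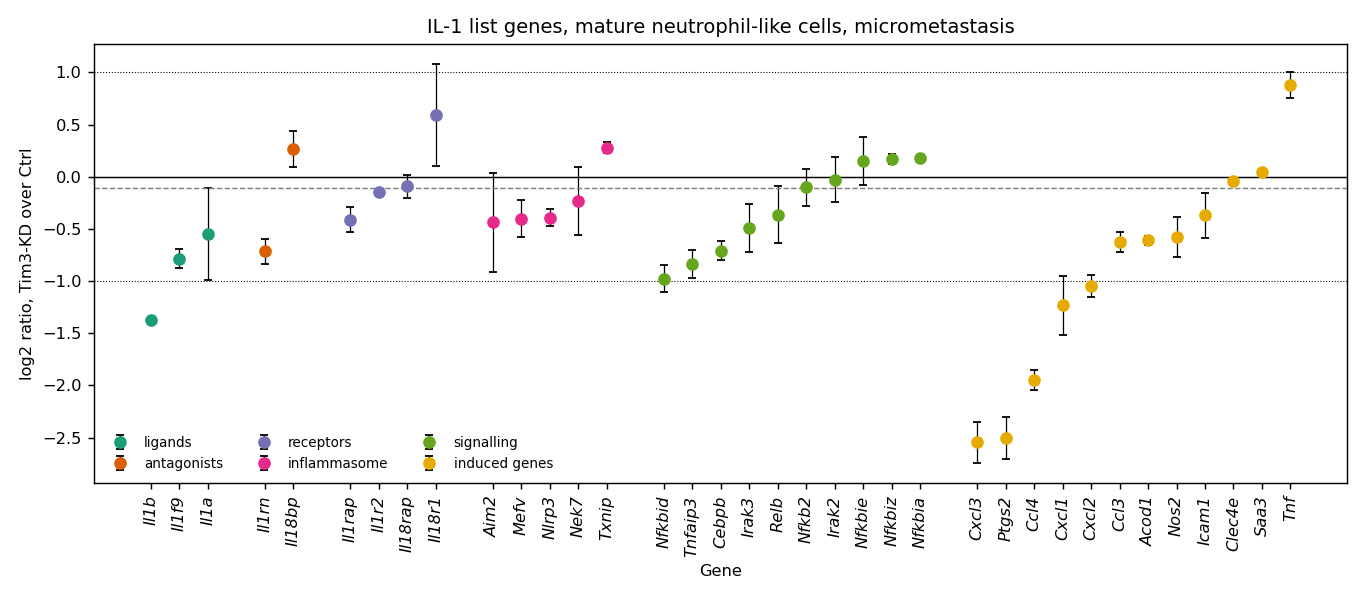
Tim3-KD over Ctrl log2 ratio in mature neutrophil-like cells of micrometastasis for the 36 listed genes with at least 100 UMIs, grouped by role (colour), with 95% exact intervals. Dotted lines mark 2-fold and the dashed line the median of all genes at -0.10, and 6 genes lie below the lower dotted line, with Cxcl3 and Ptgs2 lowest and Tnf highest.

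In macrometastasis 30 listed genes had at least 100 UMIs in mature neutrophil-like cells, of which 0 were at least 2-fold lower and 1 at least 2-fold higher, against 1.62% and 3.67% of 1663 genes. Over whole macrometastasis libraries 0 of 34 listed genes passed 2-fold in either direction, against 10.6% lower and 2.27% higher of all genes. Monocyte-like cells of micrometastasis, whose cluster makeup differed between the libraries, had 10 of 37 listed genes at least 2-fold lower and 1 higher. All genes there gave 13.7% and 5.52% of 2230. Monocyte-like cells of macrometastasis had 4 of 28 listed genes at least 2-fold lower and 1 higher, against 8.82% and 7.37% of 1588 genes. The lower ones were Relb (22.3 and 6.57 CPM), Nfkbie (41.3 and 18.9 CPM), Tnf (60.0 and 28.0 CPM) and Acod1 (57.7 and 18.8 CPM), and the higher one was Saa3 (585.2 and 1424 CPM). Kupffer-like cells of macrometastasis had 5 of 24 lower and 0 higher, against 4.47% and 1.49% of 1744 genes. The neutrophil markers that the macrometastasis matrix holds summed to 150.3 CPM for Ctrl and 113.1 for Tim3-KD in them. The 5 lower genes were Il1r2, Nlrp3 (177.6 and 83.6 CPM), Tnf (80.6 and 15.8 CPM), Cxcl1 (232.8 and 103.7 CPM) and Ccl4 (763.3 and 300.5 CPM). Kupffer-like cells of micrometastasis had 0 of 27 lower and 3 higher, against 1.19% and 2.78% of 1261 genes. These were Il1r2, Saa3 (9.31 and 118.4 CPM) and Clec4e (10.1 and 52.0 CPM), beside the summed neutrophil markers of 256.2 and 581.8 CPM given above, whose part was not tested. Over whole micrometastasis libraries 7 of 40 listed genes were at least 2-fold lower and 0 higher, against 18.1% and 0.749% of all genes, so their share was near that of all genes. Over whole adjacent tissue libraries 14 of 40 were at least 2-fold lower and 8 higher, against 9.26% and 33.9% of all genes. In mature neutrophil-like cells of adjacent tissue, with 19 cells in Tim3-KD, 3 of 29 were lower and 8 higher, against 13.2% and 27.7% of 953 genes.

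Over 27 profiles of class by library with at least 50 cells, in the 4 libraries that hold Il1b, the genes whose log2(CPM + 10) followed Il1b most closely were Ccrl2 (Pearson r 0.93), Il1rn (0.89), Tnfaip2 (0.88), Gm5150 (0.88) and Clec7a (0.88), which encodes a receptor for fungal β-glucan. Among the 1615 genes compared, those with a unique symbol in all 3 matrices and with the IL-1 list kept in, Il1r2 ranked 65 with r 0.74. Over 46 profiles in 6 libraries, the genes closest to Il1r2 were Fbxl5 (0.96), Ccr1 (0.95), Slc16a3 (0.94), Asprv1 (0.94) and Clec4e (0.93). The points share libraries and class names, so these coefficients are descriptions without a p-value, and the 2 lists have no gene in common.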

How the data were processed

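CD45+ liver cells of 6 libraries, 1 per group, were profiled with 10x 3′ chemistry. Per the study's methods and the submitters' processing notes, the authors trimmed reads with Trim Galore 0.4.3, mapped them with STAR 2.7.7a to GRCm38 (Ensembl annotation), counted exonic and intronic UMIs, filtered cells on UMIs, genes and mitochondrial share, and removed doublets with scrublet, so no doublet caller was run here. The deposited matrices, 1 per site, hold a score: log values per cell, centred and scaled per gene and capped at 10, for variable genes only.

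The scores were inverted to UMIs and cell totals. The model used took each score to have had a linear term in the cell's total UMIs removed, gene by gene. Over 99.9% of detected values came out whole within 0.05 in each matrix (for Il1b and Il1r2, 100%, with 0 cells at the cap), and the inversion was checked on simulated data. Recovered totals came out whole for 92.3%, 90.5% and 97.5% of cells under 8000 UMIs in adjacent tissue, micrometastasis and macrometastasis. Cells were clustered on 1615 genes shared by the matrices, without the IL-1 list (UMIs per 10000, log, 30 components, 15 Manhattan neighbours, Leiden resolution 1, scanpy 1.11.5). Clusters took the class with the most fixed markers among their 10 leading genes, then with the most markers at least 2-fold higher (at least 3), provided that any other class had under 50% as many among the leading genes. This left 2 clusters unnamed. Clusters 3 and 9 were named from 7 and 8 higher markers, with 0 among the leading genes. Different names from the study's own may follow from this rebuilding.

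Levels were summed UMIs over summed totals, with exact Poisson, Clopper-Pearson and conditional binomial 95% intervals for counting error (scipy 1.17.1). No count model was fitted, since 1 library per group allows no test. Named genes were the members, the IL-1 list and the 5 genes nearest each member in profile. Members and lists were chosen with earlier results of these data known. Alternatives covered scaling, depth, clustering, thinning and minimum counts.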

Additional observations from a re-analysis of the deposited data

Results flagged for a closer look

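With 1 library per group, a difference between sites in the Tim3-KD over Ctrl ratio was picked out where the intervals of counting error lay on opposite sides of 1 at 2 sites and both libraries held at least 15 cells of the class. None of these differences between sites was tested, and the adjacent tissue Tim3-KD library held 19 mature neutrophil-like and 23 monocyte-like cells.

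In mature neutrophil-like cells the Il1b ratio was 2.27 in adjacent tissue and 0.386 in micrometastasis. In adjacent tissue, cluster 4, the highest in Il1b, held 336 of 569 of these cells for Ctrl and 18 of 19 for Tim3-KD, and within it the ratio was 1.45 (1.35 to 1.55). Over the whole class there, 27.7% of 953 genes were at least 2-fold higher. For Il1r2 in the same cells, adjacent tissue gave 1.40, against 0.900 for micrometastasis and 0.928 for macrometastasis, and within cluster 4 of adjacent tissue the ratio was 1.11 (0.976 to 1.25).

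In monocyte-like cells the Il1b ratio was 1.97 in adjacent tissue and 0.249 in micrometastasis. This opposition was not seen within cluster 5, which held 17 of the 23 adjacent tissue Tim3-KD cells. There the ratio was 0.770 (0.657 to 0.899) in adjacent tissue and 0.477 in micrometastasis, while cluster 13, low in Il1b, held 88 of 274 cells for Ctrl and none for Tim3-KD. For Il1r2 in monocyte-like cells micrometastasis gave 1.42, against 0.469 for adjacent tissue and 0.506 for macrometastasis. By cluster, macrometastasis gave 0.986 (0.816 to 1.19) in cluster 5 and 0.828 (0.730 to 0.938) in cluster 9, while cluster 13 gave 0.107 (0.081 to 0.142) and held 7 of 375 monocyte-like cells for Ctrl and 110 of 568 for Tim3-KD. Neutrophil RNA was gauged by the 12 mature neutrophil markers that each matrix holds, which are not the same 12 at each site, so sums compare only within a site. The summed level in monocyte-like cells was 987.1 CPM for Ctrl and 955.0 for Tim3-KD in adjacent tissue, where 7 of the markers were at 0 for Tim3-KD. It was 314.4 and 237.8 CPM in micrometastasis, and 672.0 and 376.1 CPM in macrometastasis. Cluster 5 gave 2.38 in micrometastasis and 0.304 (0.150 to 0.554) in adjacent tissue, beside marker sums of 377.0 and 410.0 CPM and of 1477 and 991.2 CPM. The part of neutrophil RNA in these ratios was not tested.

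In Kupffer-like cells micrometastasis gave an Il1r2 ratio of 4.96, against 0.094 for adjacent tissue and 0.456 for macrometastasis, at levels that overlapped those of B-like cells. The neutrophil markers held by each matrix, again not the same set at each site, summed to 888.1 CPM for Ctrl and 397.8 for Tim3-KD in adjacent tissue. They summed to 256.2 and 581.8 CPM in micrometastasis, and to 150.3 and 113.1 CPM in macrometastasis. They thus moved in the direction of Il1r2 at each site, and their part in its ratios was not tested.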

How the results depend on the processing

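All values here are Tim3-KD over Ctrl log2 ratios. Scaled to the trimmed mean of all genes, whole-library Il1b was -1.78 in adjacent tissue and -1.09 in micrometastasis, Il1r2 was -3.77, 0.38 and -0.12 in adjacent tissue, micrometastasis and macrometastasis, and in mature neutrophil-like cells Il1b was -1.27 and Il1r2 -0.045 (micrometastasis) and 0.0058 (macrometastasis), so Il1r2 changed sign in micrometastasis libraries and in macrometastasis neutrophils. As a mean over cells, whole-library Il1b was -2.05 and -1.20, Il1r2 was -3.01, 0.18 (a change of sign) and -0.0042, and neutrophil Il1r2 in micrometastasis was -0.12. Without cells above the 95th percentile of UMIs, whole-library Il1b was -1.63 and -1.65, Il1r2 was -0.16 at both metastatic sites, and neutrophil Il1r2 in macrometastasis was -0.14. Without cells under 3000 UMIs, neutrophil Il1b was -1.35. With all shared genes in the clustering, neutrophil Il1b was -1.52 and Il1r2 -0.26 and -0.14. At Leiden resolution 0.5 these were -1.48, -0.22 and -0.15, and at resolution 2 Il1b was -1.40. With the level of B-like cells taken off, an alternative chosen after seeing the data, neutrophil Il1b was -1.45 and Il1r2 -0.21 in micrometastasis. Il1b kept its sign under each of these alternatives. The cause of these moves was not tested. Thinned to 3000 UMIs, 94.8% of mature neutrophil-like cells of micrometastasis Ctrl and 86.5% of those of Tim3-KD had a UMI of Il1b. With a minimum of 20 UMIs in place of 100, 5 listed genes in place of 3 were at least 2-fold lower and 12 in place of 8 at least 2-fold higher in adjacent tissue neutrophils, and 2 in place of 1 at least 2-fold higher in macrometastasis neutrophils. Leaving out cells with a capped value changed no value, since there were none. Alternatives for Il1b in macrometastasis, and for the ratios of Il1b and Il1r2 in adjacent tissue neutrophils, were not run. No paired analysis was possible because each group is 1 library.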
